A study of Mus musculus with 8 samples.

Results

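Hox genes encode homeodomain transcription factors, and a mouse gene was taken as a member where its symbol was Hoxa, Hoxb, Hoxc or Hoxd followed by a number. This gave 39 genes of the 49585 in the count table, of which 38 are described: 10 in the Hoxa cluster, 10 in Hoxb, 9 in Hoxc and 9 in Hoxd. RNA was sequenced from 3T3-L1, a mouse fibroblast line that can become fat-storing cells when treated with an inducing mixture. The 8 libraries form 4 groups of 2: 3D induced, 3D uninduced, 2D induced and 2D uninduced. The 3D cultures were hanging-drop spheroids seeded with about 20000 cells in 28 µL, the 2D cultures were flat, and all were kept to day 7 in calf serum medium that the labels list with methylcellulose. Induced cultures received troglitazone (10 µM) and insulin (1 µg/ml), plus dexamethasone (250 nM) and triiodothyronine (10 nM) in the first 2 days, and uninduced cultures received none of these. All libraries come from the same cell line, so neither a second line nor primary preadipocytes were examined.

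Hox genes lie in chromosomal clusters in which gene order follows order along the body axis: low-numbered genes are used toward the head and high-numbered genes toward the tail and the limb ends. Genes with the same number in different clusters form a paralog group and share much of their sequence and function. Fibroblasts and fat precursor cells grown in culture keep a Hox pattern that reflects the body site they came from, and Polycomb and Trithorax proteins hold silent and active Hox genes in their states. Hox proteins bind DNA together with partners of the PBX, MEIS and PREP families.

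In build GRCm38 (mm10), with GENCODE vM21 annotation, the Hoxa members described span chr6:52162417-52260880 on the minus strand. The Hoxb members span chr11:96194316-96368256, the Hoxc members chr15:102921103-103036852 and the Hoxd members chr2:74668310-74765142, all on the plus strand. RefSeq promoter windows on GRCm38.p6 were found for 22 of the 38 members. The 150 bases before the RefSeq start site are printed for 5 of these members, 5′ to 3′ on the gene's strand. Each CG dinucleotide is in capitals. For Hoxa3, Hoxa7 and Hoxd4 this stretch lies inside the GENCODE gene, which starts farther upstream. Among the 24 Hox windows, 20 had an end found in an annotated transcript of the gene. Hoxd8 and Hoxa7 had the highest levels per length, Hoxa3 and Hoxd4 were called higher in spheroids, and Hoxd13 had no count in any library.
Hoxd8, chr2:74704465-74704614: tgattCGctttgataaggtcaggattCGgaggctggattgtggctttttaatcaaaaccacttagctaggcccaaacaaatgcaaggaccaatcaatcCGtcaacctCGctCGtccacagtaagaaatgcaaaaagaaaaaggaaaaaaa
Hoxa7, chr6:52218574-52218723: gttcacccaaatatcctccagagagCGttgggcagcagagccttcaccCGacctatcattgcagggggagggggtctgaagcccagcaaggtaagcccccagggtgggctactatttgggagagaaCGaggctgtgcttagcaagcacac
Hoxa3, chr6:52213068-52213217: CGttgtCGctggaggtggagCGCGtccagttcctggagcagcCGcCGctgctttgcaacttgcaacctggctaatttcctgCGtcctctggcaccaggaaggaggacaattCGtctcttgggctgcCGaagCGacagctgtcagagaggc
Hoxd4, chr2:74721828-74721977: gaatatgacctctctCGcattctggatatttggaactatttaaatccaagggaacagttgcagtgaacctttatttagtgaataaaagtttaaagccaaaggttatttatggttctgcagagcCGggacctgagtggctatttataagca
Hoxd13, chr2:74668075-74668224: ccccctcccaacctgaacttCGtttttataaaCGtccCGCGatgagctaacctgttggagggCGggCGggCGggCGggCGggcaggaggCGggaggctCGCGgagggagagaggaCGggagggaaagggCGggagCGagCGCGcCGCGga
The printed stretch of the silent Hoxd13 holds 19 CG dinucleotides, that of Hoxa3 10, Hoxd8 5, Hoxa7 3 and Hoxd4 2.

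Over the full windows (250 bases before and 50 after the start), the 11 Hox promoters of genes with enough counts to be tested held a median of 14 CG dinucleotides, with a range of 4 to 29. The 5 windows of members with no counts held a median of 15, with a range of 10 to 45, and all 32851 mouse windows a median of 7. The CCAAT box (CCAAT, either strand) was in 15 of the 24 Hox windows, 62.5%, against 37.4% of all windows. The TATA box (TATAAA, either strand) was in 4 Hox windows, 16.7%, including those of Hoxd4 and Hoxd13, against 13.6% of all windows. The site bound by HOX and PBX proteins together (TGATNNAT, either strand) was in 4 Hox windows, 16.7%, against 8.85% of all windows. The motifs were searched separately, so matches of different motifs may share letters, each match describes the letters only, and 2 members have 2 windows each.

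The 8 libraries held 11839374 to 21169390 counts, and the 38 Hox genes took 0.0190 to 0.0245% of them. Of all 49585 genes, 15255 had enough counts to be tested. The 3D induced replicates were the least alike. A change of at least 2-fold between replicates was seen for 2159 genes there and for 380 to 561 genes elsewhere; among the 18 tested Hox genes these numbers were 6 there and 1 in each other group. The ribosomal-sequence transcripts, Gm42418 and Gm26917, took 1.13% of counts in 3D induced replicate 2 and 0.106 to 0.279% in the other libraries. Of 10 preadipocyte and fibroblast markers, 9 or 10 averaged at least 1 CPM (counts scaled to TMM-adjusted library size) in each group. Their summed levels were 8347 to 22730 CPM in 3D induced, 17210 to 19670 CPM in 3D uninduced, 32520 to 33210 CPM in 2D induced and 49790 to 51090 CPM in 2D uninduced cultures. Most of each sum came from Col1a1, Col1a2, Col3a1, Dlk1 and Vim. For 3D against 2D, Pdgfrb had positive log2 changes, 0.40 with and 0.26 without induction, neither called. Those of the other members were negative. Summed adipocyte markers were 3615 to 4005, 1108 to 1459, 9854 to 10360 and 1687 to 1724 CPM in the same order. Of the 2D uninduced sums, Lpl alone made up 1601 and 1639 CPM. Cfd was at 0 in both libraries of each uninduced group. By the rule for calls given below, 2 of the 10, Plin1 and Lipe, were higher in 3D uninduced than in 2D uninduced cultures, and 0 were lower. This stands beside 9.44% of all genes called. In 3D induced against 2D induced cultures all 10 were called lower, beside 12.4% of all genes. For induction, 10 were called higher in 2D, beside 4.52%, and 5 were called higher in 3D, beside 0.911%. The macrophage genes Ptprc and Adgre1 were at 0 in all 8 libraries. All 7 macrophage markers summed to 28.4 to 54.1, 62.0 to 64.8, 16.6 to 17.5 and 16.7 to 22.5 CPM in that order. Of 4 tested, Cd14 was called higher in 3D than in 2D uninduced cultures, beside 9.44% of all genes. Cd14 and Cd68 were called higher in 3D than in 2D induced cultures, beside 12.4%, and 0 were called lower. These markers moved with culture format and induction, and their part in the Hox differences was not tested.

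Low-numbered Hox genes were expressed more often than high-numbered ones. The highest levels in Hoxa, Hoxc and Hoxd nevertheless lay farther along the cluster, at Hoxa7, Hoxc13, Hoxd8 and Hoxd9. All 38 members are protein-coding, while the table also holds noncoding genes and pseudogenes, so the next 2 shares cover unlike kinds of gene. Enough counts to be tested were found for 18 of 38 members, 47.4%, against 30.8% of all genes in the table. By cluster these were 6 of 10 in Hoxa (Hoxa2 to Hoxa7), 5 of 10 in Hoxb (Hoxb2 to Hoxb6), 3 of 9 in Hoxc (Hoxc4, Hoxc6 and Hoxc13) and 4 of 9 in Hoxd (Hoxd3, Hoxd4, Hoxd8 and Hoxd9). By position they were 11 of 14 members of paralog groups 1 to 5, 5 of 8 of groups 6 to 8 and 2 of 16 of groups 9 to 13. The 2 from the tail end were Hoxd9, which with its paralogs patterns the upper limb, and Hoxc13, which is needed for hair and nails. With a mean of at least 1 CPM in some group as the criterion the number was 16, and with 0.5 CPM it was 23.

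**Figure D1:**
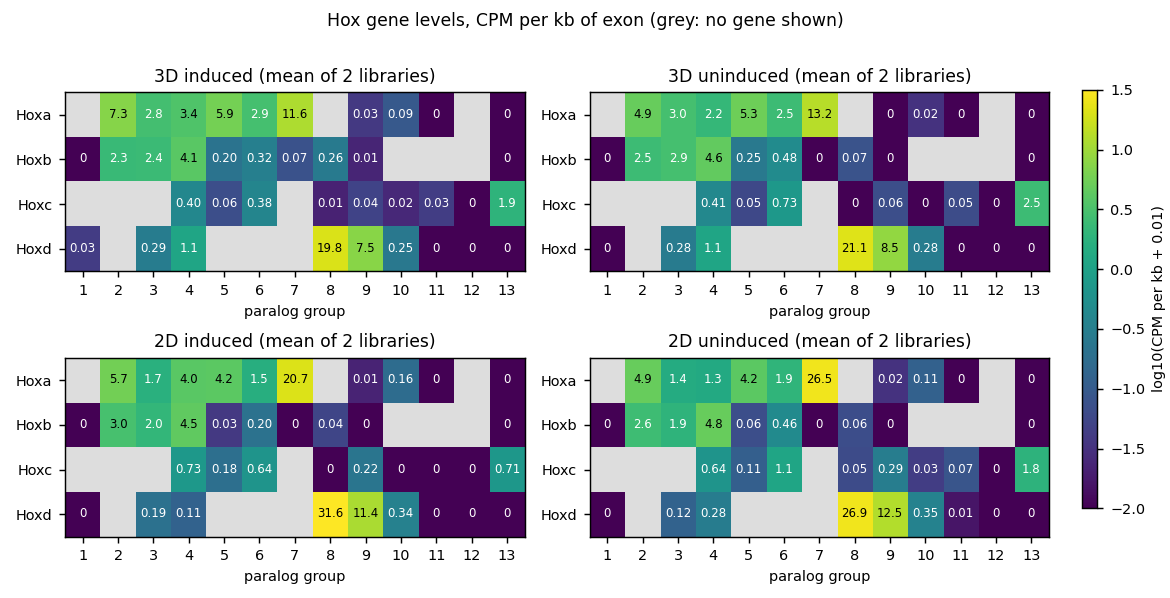
Mean level of each Hox gene in CPM per kb of exon, with clusters as rows and paralog groups as columns, 1 panel for each of the 4 groups (2 libraries each); colour is log10(CPM per kb + 0.01) and grey marks positions with no gene shown. In Hoxa and Hoxb the tested positions run from 2 to 7 and from 2 to 6, and in Hoxd the highest are 8 and 9. Paralog groups 10 to 13 hold no tested member apart from Hoxc13. The highest of the rest is Hoxd10, at 0.246 to 0.351.

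Of the members not tested, 7 had no count in any library: Hoxa11, Hoxa13, Hoxb1, Hoxb13, Hoxc12, Hoxd12 and Hoxd13. Hoxa13 and Hoxd13 shape the digits and the hind end of the body, and Hoxb1 marks one segment of the embryonic hindbrain. A count of 0 allows up to 3 counts, which is 0.149 to 0.268 CPM by library, and covers counting error only. The other 13 held 1 to 65 counts over all 8 libraries. Hoxd10 was the highest of these, with 14, 14, 16 and 21 counts summed over the 2 libraries of 3D induced, 3D uninduced, 2D induced and 2D uninduced cultures. Its 0.305 CPM per kb of exon over the 8 libraries was above the tested Hoxd3 (0.220) and Hoxb5 (0.136). The count filter thus does not rank members by level.

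Hoxc9 and Hoxc10, which are known in mouse from subcutaneous fat, were near the lower limit. Hoxc9 had 3 counts (95% exact Poisson interval 0.62 to 8.77) in 3D induced, 4 (1.09 to 10.2) in 3D uninduced, 14 (7.65 to 23.5) in 2D induced and 25 (16.2 to 36.9) in 2D uninduced cultures. Hoxc10 had 1, 0, 0 and 2 counts in the same order. Hoxb8 had 23 (14.6 to 34.5), 5 (1.62 to 11.7), 3 (0.62 to 8.77) and 4 (1.09 to 10.2), and 19 of the 23 came from 3D induced replicate 2. Hoxa10 had 9, 2, 14 and 13 counts and Hoxc5 had 6, 4, 14 and 11. The other 7, which were Hoxa9, Hoxb7, Hoxb9, Hoxc8, Hoxc11, Hoxd1 and Hoxd11, had no more than 5 counts in any group.

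Ordered by level per kb of exon, averaged over the 8 libraries, the tested members began with Hoxd8, Hoxa7 and Hoxd9. Hoxd8 stood at 19.8 ± 1.53 CPM per kb in 3D induced, 21.1 ± 0.584 in 3D uninduced, 31.6 ± 1.76 in 2D induced and 26.9 ± 0.0718 in 2D uninduced cultures (SD, n = 2 libraries each, here and below). Hoxa7, at 11.6 ± 0.803, 13.2 ± 0.481, 20.7 ± 1.39 and 26.5 ± 2.24 CPM per kb in that order, was below Hoxd8 in the mean of all 4 groups, and Hoxd9 below Hoxa7 in all 4. Hoxa2, which sets the identity of the second pharyngeal arch, Hoxa5, a gene of lung and thoracic patterning, and Hoxb4, a blood stem cell regulator, followed at 5.69, 4.90 and 4.49 CPM per kb over all libraries.

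A middle group of 6 members, which were Hoxa4, Hoxb2, Hoxb3, Hoxa3, Hoxa6 and Hoxc13, lay between 1.73 and 2.72 CPM per kb. Hoxc6, Hoxd4, Hoxc4, Hoxb6, Hoxd3 and Hoxb5 lay between 0.136 and 0.718 CPM per kb. Within groups, Hoxa7 and Hoxd9 were the only neighbours in this order whose libraries kept apart the same way in all 4 groups, with both Hoxa7 libraries above both Hoxd9 libraries. For the other 16 of 17 neighbouring pairs the libraries overlapped in at least 1 group or, for Hoxc6 and Hoxd4, lay one way in 2 groups and the other way in 2. The means kept the order in all 4 groups for 7 pairs.

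Hoxa members held 45.1 ± 0.602% of the summed Hox level per kb in 3D induced, 40.3 ± 1.30% in 3D uninduced, 40.5 ± 2.44% in 2D induced and 42.7 ± 0.777% in 2D uninduced cultures. Hoxd members held 38.4 ± 1.71%, 40.6 ± 0.326%, 46.5 ± 1.70% and 42.6 ± 2.21% in that order. Hoxb members held 10.4 to 14.1% and Hoxc members 2.65 to 4.94% in the group means. Without division by length the Hoxb shares were 12.3 to 17.0%.

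Hoxd8, Hoxa7 and Hoxd9 together made up 49.3 and 53.9% of the Hox level per kb in the 3D induced libraries and 55.8 and 55.4% in the 3D uninduced libraries. They made up 67.7 and 67.98% in the 2D induced and 70.9 and 68.7% in the 2D uninduced libraries, above all 4 spheroid libraries. The level of Hoxa7 per kb was 3.79 to 4.63 times that of Hoxa3 in spheroid libraries and 10.8 to 19.8 times in flat ones. These shares and the ratio were chosen after their values were seen and were not tested.

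The question of what spheroid culture did to Hox RNA was taken first without induction. In 3D uninduced against 2D uninduced cultures, Hoxa3 and Hoxd4 were higher, and Hoxa7 was lower with a change just short of 2-fold. Hoxa3, needed for the thymus and other neck organs (chr6:52169062-52213336), was at 16.7 and 18.8 CPM in 3D uninduced libraries, against 8.71 and 8.52 CPM in 2D uninduced libraries. The groups were far apart, and the log2 fold change was 1.04 ± 0.19 (SE, edgeR quasi-likelihood test, adjusted p = 0.00928). Hoxd4, a neck vertebra gene (chr2:74711929-74729160), was at 2.88 and 3.78 CPM in 3D uninduced, against 0.846 and 0.829 CPM in 2D uninduced libraries. It had 39 and 52 counts in 3D uninduced and 17 and 11 counts in 2D uninduced libraries, and the log2 fold change was 1.98 ± 0.58 (adjusted p = 0.0470). A gene is called here with a Benjamini-Hochberg adjusted p under 0.05 and at least a 2-fold change. These were 2 of 18 Hox genes, both higher, while 9.44% of all genes tested were called and 5.42% were called higher. In bulk RNA, fewer cells of one kind and less RNA per cell cannot be told apart.

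Hoxa7, a trunk gene (chr6:52214491-52221854), was at 37.1 and 39.04 CPM in 3D uninduced libraries, against 71.5 and 80.7 CPM in 2D uninduced libraries. Its log2 fold change was -0.998 ± 0.12 with an adjusted p of 0.00223 (edgeR), a 1.998-fold decrease that stayed below the 2-fold limit. By adjusted p alone Hoxd9, at -0.56 ± 0.16, also passed (adjusted p = 0.0434), so that 4 of 18 members did, against 21.1% of all genes. Hoxd8 did not, at -0.35 ± 0.11 (adjusted p = 0.0542). The 2 groups did not overlap for 11 of 18 members, against 73.3% of all genes.

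The Hoxa3 call was lost when either 2D uninduced library (adjusted p = 0.0877 and 0.0868) or 3D uninduced replicate 2 (0.0672) was left out, and the log2 value stayed between 0.95 and 1.12. The Hoxd4 call was lost without any of the 4 uninduced libraries or either 2D induced library, with adjusted p up to 0.222. Hoxa7 reached 2-fold and was called without 2D uninduced replicate 1, either 2D induced library or 3D uninduced replicate 2. Without either 3D induced library Hoxc9 was called lower (-2.26 in both fits), and without replicate 2 of that group Hoxb5 was called higher (2.13).

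**Figure D2:**
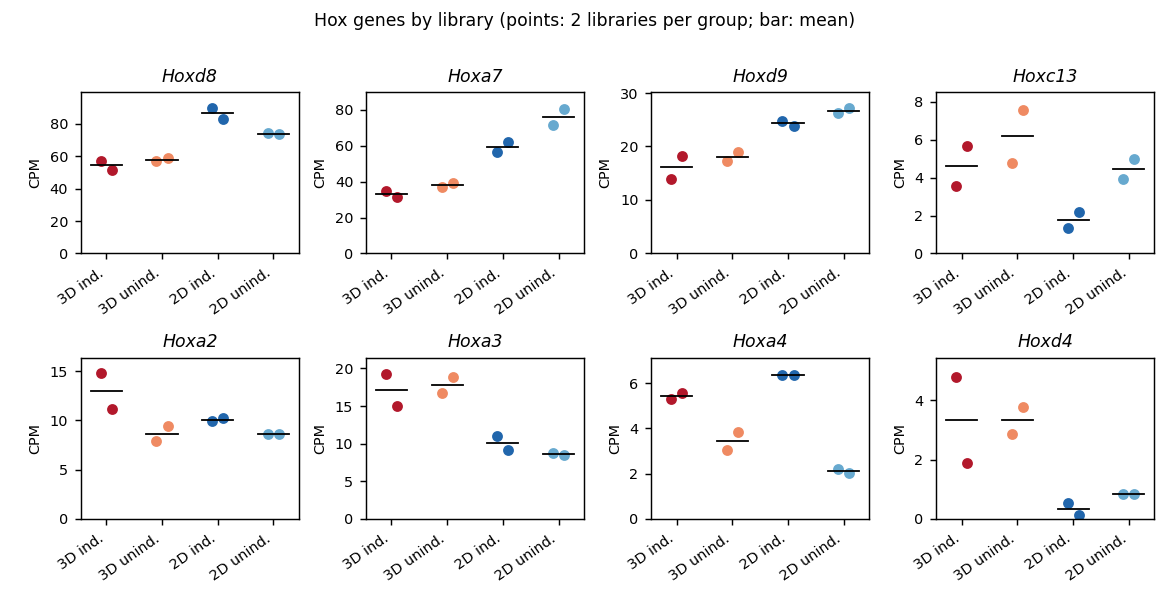
CPM of 8 Hox genes in each library (points, 2 per group) with the group mean (bar), each panel starting at 0. Hoxd8, Hoxa7 and Hoxd9 are lower and Hoxa3 and Hoxd4 higher in all 4 spheroid libraries than in all 4 flat ones, while Hoxa4 is highest in 2D induced and lowest in 2D uninduced libraries.

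With induction, Hoxd4 and Hoxc13 were higher in spheroids. Hoxd4 was at 4.81 and 1.87 CPM in 3D induced, against 0.536 and 0.140 CPM in 2D induced libraries. The 2D induced values rest on 6 and 2 counts, and the spheroid libraries lay apart but above both flat ones. The log2 fold change was 3.34 ± 0.68 (edgeR, adjusted p = 0.0106). Hoxc13 (chr15:102921103-102928814) was at 3.59 and 5.68 CPM in 3D induced, against 1.34 and 2.17 CPM in 2D induced libraries. The groups did not overlap, and the log2 fold change was 1.38 ± 0.39 (adjusted p = 0.0337). These 2 of 18 members stand beside 12.4% of all genes called, and beside 6.94% called higher.

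By adjusted p alone 6 of 18 members passed in this comparison, against 28.7% of all genes. Hoxa7 was at 34.9 and 31.7 CPM in 3D induced, against 56.7 and 62.4 CPM in 2D induced libraries, with a log2 fold change of -0.84 ± 0.12 (edgeR, adjusted p = 0.00308). Hoxd8 was at 57.3 and 51.3 CPM in 3D induced, against 90.1 and 83.2 CPM in 2D induced libraries, a change of -0.67 ± 0.11 (adjusted p = 0.00429). Both genes were lower in each spheroid library than in each flat one. Hoxa3 at 0.77 ± 0.19 and Hoxd9 at -0.60 ± 0.16 also passed by adjusted p (0.0216 and 0.0283). The groups did not overlap for 12 of 18 members, against 63.2% of all genes.

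The Hoxd4 call was lost without 2D induced replicate 2 (log2 fold change 2.61, adjusted p = 0.0862). Its log2 value was 2.54 without 3D induced replicate 1, 3.89 without 3D induced replicate 2 and 4.48 without 2D induced replicate 1. The Hoxc13 call was lost without either 2D uninduced library, either 2D induced library or 3D induced replicate 2, with adjusted p up to 0.190, and with limma-voom and group weights (0.132). Without 3D induced replicate 1, Hoxb8 was called higher (3.16), and Hoxc4 (-3.33) and Hoxd3 (-2.67) were called lower. Without 3D induced replicate 2, Hoxb5 (3.65) and Hoxd3 (1.52) were called higher, so that the direction of Hoxd3 turned with the library left out.

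Hoxd4 was called in both 3D against 2D comparisons, which share no library. They do share the fit of all 8 libraries, with 1 spread per gene, so the calls are not independent. From its own 4 libraries alone, the comparison with induction did not call Hoxd4. Over the 18 tested members the median log2 fold change was 0.20 without and 0.31 with induction, against medians of 0.03 over all genes in each. Higher values in spheroids were found for 11 and 10 members and lower values for 7 and 8. The Hox medians moved with the processing. With induction, DESeq2 gave 0.30 and no filter 0.48, but limma-voom gave -0.001. The 4 compared libraries alone gave 0.07, and dropping 3D induced replicate 1 gave -0.37. Without induction, DESeq2 and limma-voom gave 0.19, the 4 libraries 0.03 and no filter -0.06. Some of these fits tested other numbers of members, and a shift of the set was not tested.

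**Figure D3:**
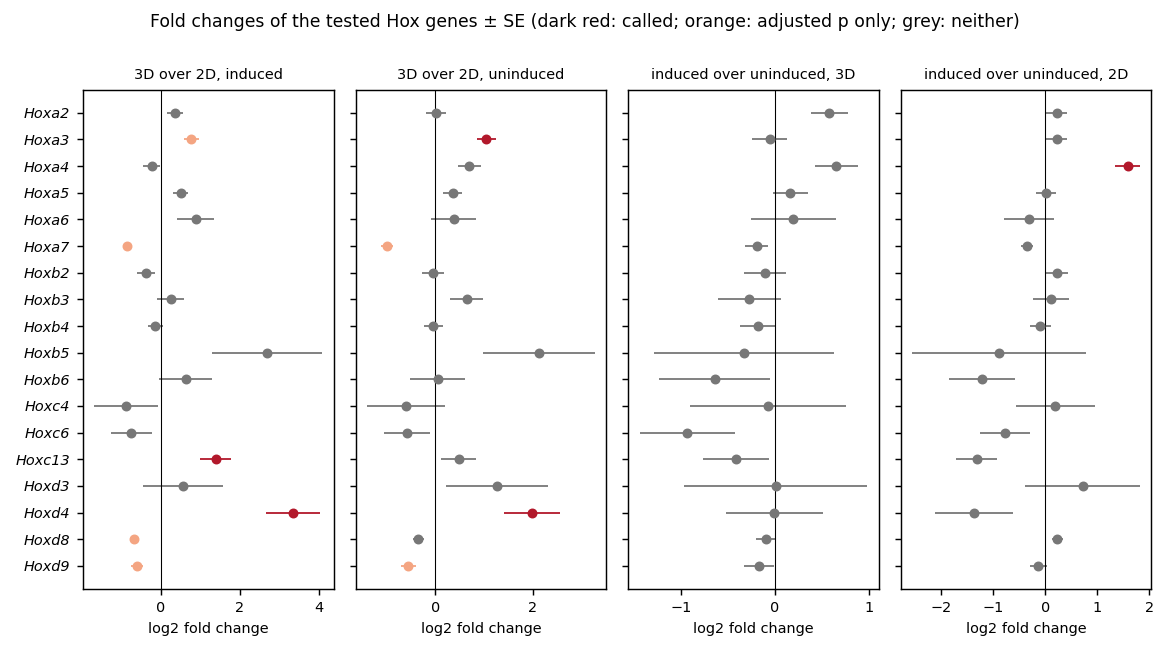
Log2 fold changes ± SE of the 18 tested Hox genes in 4 comparisons, from the edgeR fit (x axes differ in scale), with called genes in dark red, genes passing by adjusted p alone in orange and the rest in grey. Hoxd4 is called in both 3D over 2D panels, Hoxa4 in 2D induction, and no member in 3D induction.

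Induction moved 1 Hox gene in flat culture. Hoxa4, another gene of neck vertebrae (chr6:52189671-52191753), was at 6.34 and 6.37 CPM in 2D induced libraries, against 2.19 and 2.04 CPM in 2D uninduced libraries. It had 71 and 91 counts in 2D induced and 44 and 27 counts in 2D uninduced libraries, and the log2 fold change was 1.58 ± 0.24 (edgeR quasi-likelihood test, adjusted p = 0.00706). This was 1 of 18 members, against 4.52% of all genes. The call was lost without any one of the 4 flat libraries (adjusted p = 0.0729 to 0.102), although the log2 value stayed between 1.49 and 1.596.

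Hoxc13 was at 1.34 and 2.17 CPM in 2D induced, against 3.93 and 4.98 CPM in 2D uninduced libraries. The groups did not overlap, but the change of -1.31 ± 0.39 missed the threshold (edgeR, adjusted p = 0.0846). It was called without either 3D induced library (adjusted p up to 0.00645), with no filter (0.00594), with limma-voom (0.00236) and from the 4 flat libraries alone (0.000836), and not with DESeq2 (0.0509). The abundant Hoxa7, at -0.35 ± 0.12, and Hoxd8, at 0.23 ± 0.11, had adjusted p of 0.124 and 0.251. The 2 groups did not overlap for 12 of 18 members, against 69.6% of all genes, and the median change was -0.04, against 0.00 over all genes.

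In spheroids no Hox gene was called for induction by edgeR, DESeq2 or limma-voom, against 0.911% of all genes by edgeR. At an unadjusted p under 0.05 edgeR gave 2 members, Hoxa2 and Hoxa4, against 12.4% of all genes. Hoxa4 was at 5.28 and 5.56 CPM in 3D induced, against 3.02 and 3.85 CPM in 3D uninduced libraries. Its change of 0.66 ± 0.23 had an adjusted p of 0.279. Hoxa2 was at 14.8 and 11.2 CPM in 3D induced, against 7.89 and 9.45 CPM in 3D uninduced libraries, a change of 0.58 ± 0.20 (edgeR, adjusted p = 0.263). Both genes were higher in each induced library, without passing the test. Without 3D induced replicate 1, Hoxc4 and Hoxd3 were called lower. The groups did not overlap for 6 of 18 members, against 32.6% of all genes.

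The difference between the 2 inductions, tested as an interaction, was called for 0 of 18 members by edgeR, DESeq2 and limma-voom, against 0.38% of all genes by edgeR, and 1 member had an unadjusted p under 0.05. That was Hoxa4, with an interaction of -0.93 ± 0.33 (edgeR, adjusted p = 0.521). So its response to induction was not shown to differ between flat and spheroid culture. Without 3D induced replicate 1, Hoxb3 (-1.07) and Hoxd3 (-3.94) were called.

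Of 5 tested Hoxb members, 0 were called by edgeR in any comparison fitted to all 8 libraries, beside 0.38 to 12.4% of all genes. With so few members, 0 calls do not set Hoxb apart from other genes. With limma-voom Hoxb6 was called lower in 2D induction (-1.15, adjusted p = 0.0435) and Hoxb5 higher in 3D against 2D uninduced cultures (2.07, adjusted p = 0.0198). Hoxb4 was at 11.0 and 9.95 CPM in 3D induced, 11.8 and 11.9 CPM in 3D uninduced, 13.04 and 9.94 CPM in 2D induced and 11.1 and 13.4 CPM in 2D uninduced libraries. All 4 spheroid values lie within the range of the flat ones, and the log2 changes in the 4 comparisons lay between -0.18 and -0.05 (SE 0.20). Hoxb2, a hindbrain gene like Hoxb3, lay between -0.37 and 0.22. Hoxb5 had 16 and 1 counts in 3D induced, 11 and 8 counts in 3D uninduced, 1 and 1 counts in 2D induced and 2 and 3 counts in 2D uninduced libraries. Hoxb5 passed the count filter only through spheroid libraries. Its 2 3D induced libraries were the highest and the lowest of all 8 in CPM, as were those of Hoxd3 with 34 and 2 counts. Hoxc4 had 28 and 3 counts in these libraries, and 3D induced replicate 2 was the lowest of all 8 for each of these genes.

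Several Hox exons overlap other annotated transcripts. The kit was directional, but neither the strand setting of the counting nor its treatment of shared exons is stated in the labels, so reads of overlapping genes cannot be told apart. The 4 cluster spans hold 41 other annotated genes in the table, of which 9 were tested, 8 of them on the strand opposite to the Hox genes.

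5730596B20Rik, which lies within Hoxa3 on the other strand, was at 3.79 and 1.23 CPM in 3D induced, 2.14 and 2.55 CPM in 3D uninduced, 0.268 and 0.280 CPM in 2D induced and 0.249 and 0.377 CPM in 2D uninduced libraries. All 4 spheroid libraries were above all 4 flat ones, as for Hoxa3. This transcript passed the count filter only through spheroid libraries, where it was high, so its calls are no separate support. Its log2 fold change for 3D against 2D was 3.14 ± 0.68 with induction and 2.91 ± 0.65 without (edgeR, adjusted p = 0.0134 and 0.0189). The first call was lost without either 2D induced library (adjusted p up to 0.0959) and the second without any of the 4 uninduced libraries (up to 0.153). Of the Hoxa3 exon bases, 27.1% are shared with other genes on either strand. These are 5730596B20Rik, Gm28308, Gm29430, Hoxaas2 and Hoxaas3 together. Hoxaas3 went the other way. It was at 12.3 and 9.25 CPM in 3D induced and 11.3 and 10.5 CPM in 3D uninduced libraries. In 2D induced libraries it was at 16.6 and 14.4 CPM, and in 2D uninduced libraries at 18.3 and 18.6 CPM.

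Gm29430, which shares 16.0% of the Hoxa4 exon bases, was at 2.23 and 2.24 CPM in 2D induced, against 0.846 and 0.678 CPM in 2D uninduced libraries. This change of 1.53 ± 0.39 lay beside the called one of Hoxa4 but missed the threshold (edgeR, adjusted p = 0.0521). In 3D uninduced against 2D uninduced cultures Gm29430 was called (1.62 ± 0.39, adjusted p = 0.0243), while Hoxa4 was not (0.70 ± 0.24, adjusted p = 0.0787). The Gm29430 call was lost without any of the 4 uninduced libraries or either 2D induced library (adjusted p up to 0.157). Hoxaas3, which shares 20.4% of the Hoxa7 exon bases, was lower in 3D uninduced than in 2D uninduced cultures by adjusted p alone (-0.76 ± 0.18, adjusted p = 0.0258).

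Hoxd4 shares 52.3% and Hoxd3 62.3% of its exon bases with other genes of the same strand, among them each other and Gm28230. Gm28230 had 16 and 6 counts in 3D induced, 11 and 11 counts in 3D uninduced, 0 and 1 counts in 2D induced and 1 and 1 counts in 2D uninduced libraries. It was higher in all spheroid libraries and was called in both 3D against 2D comparisons (edgeR, adjusted p = 0.0332 with and 0.0350 without induction). Gm28230 passed the count filter only through spheroid libraries, where it was high, so its calls give no separate support to those of Hoxd4. With induction, leaving out any library other than 3D induced replicate 2 ended the call (adjusted p up to 0.163). Without induction it was lost without any of the 4 uninduced libraries or either 2D induced library (up to 0.231). Hoxd3 itself was called in neither, and reads in exons shared by Hoxd3, Hoxd4 and Gm28230 cannot be told apart. Hoxb3os, Hoxd3os1, Haglr, Hoxaas2 and Gm15050 were called in no comparison. Of 7 miRNA genes in the spans, 6 had no count.

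**Figure D4:**
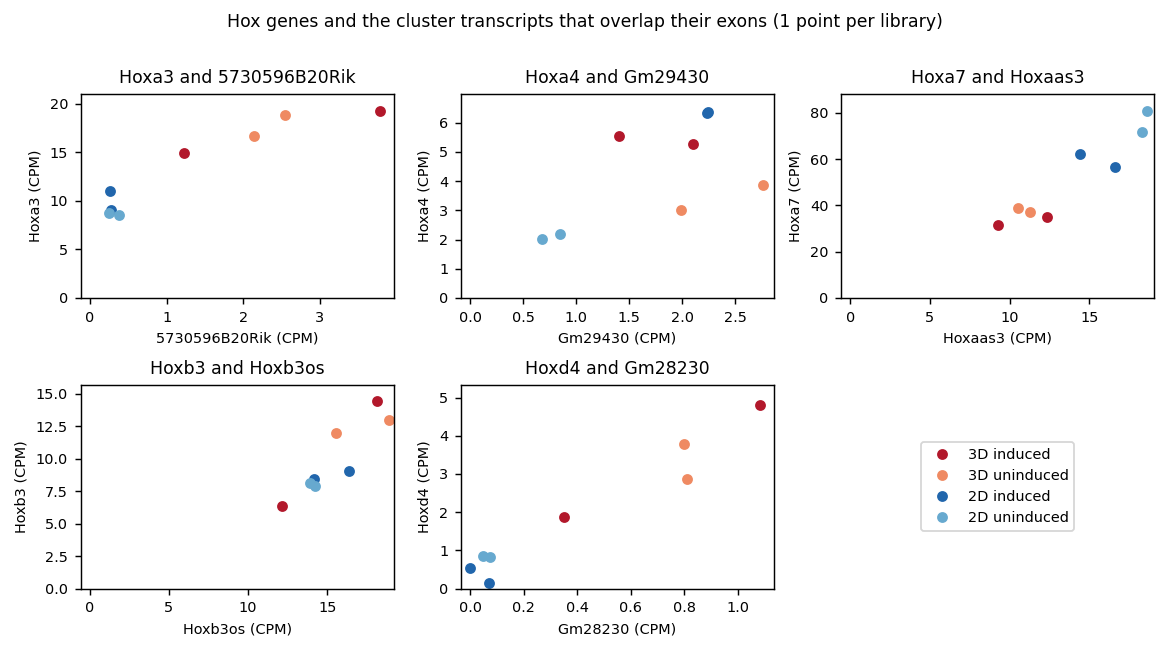
CPM of 5 Hox genes (y), each against 1 transcript that overlaps its exons (x), 1 point per library coloured by group. Hoxa3 and Hoxd4 are above their flat-culture values in all 4 spheroid libraries and so are 5730596B20Rik and Gm28230, while Hoxa4 and Gm29430 are both lowest in 2D uninduced libraries.

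Hox partners and regulators were examined as lists, and their counts stand beside the shares of all genes called, 12.4% for 3D against 2D induced, 9.44% for 3D against 2D uninduced and 4.52% for 2D induction. Of 8 TALE cofactors, which belong to the PBX, MEIS and PREP proteins that bind DNA with Hox proteins, all 8 were tested and only Pknox2, which encodes a PREP protein, was called. It was lower in spheroids, at 3.99 and 1.81 CPM in 3D induced, 3.24 and 4.29 CPM in 3D uninduced, 10.4 and 12.3 CPM in 2D induced and 16.8 and 19.7 CPM in 2D uninduced libraries. The 3D against 2D change was -1.98 ± 0.35 with induction and -2.27 ± 0.34 without (edgeR, adjusted p = 0.00613 and 0.00435); the first was lost without 2D induced replicate 2 (adjusted p = 0.0527) and the second without 3D uninduced replicate 1 (0.0579). Meis1, a MEIS gene, was at 33.1 to 50.9 CPM over the 8 libraries and was not called.

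Of the Polycomb repressive complex 2, which places the repressive mark on histone H3 at silent Hox genes, 10 of 11 listed genes were tested and 0 were called in any of 5 comparisons. Its catalytic subunit Ezh2 was at 44.4 and 35.9 CPM in 3D induced, 45.8 and 42.5 CPM in 3D uninduced, 42.4 and 41.4 CPM in 2D induced and 39.02 and 31.1 CPM in 2D uninduced libraries. The groups overlapped in part. By adjusted p alone, its subunit genes Phf1 (0.79), Mtf2 (0.59) and Aebp2 (0.41) were higher in 3D induced than in 2D induced cultures (log2, edgeR, adjusted p = 0.00785, 0.0115 and 0.0177), which is 3 of 10 beside 28.7% of all genes. Without induction Mtf2 alone passed this rule (0.60, adjusted p = 0.0142), 1 of 10 beside 21.1%. Of 18 Polycomb repressive complex 1 genes, and of 11 genes of the MLL complexes and histone H3K27 demethylases that keep Hox genes active, all were tested and 0 were called. By adjusted p alone, Kdm6b, which encodes a demethylase (0.73 ± 0.13, adjusted p = 0.00608), and the MLL complex genes Kmt2b and Ash2l (adjusted p = 0.0354 and 0.0373) were higher in 3D induced than in 2D induced cultures. These are 3 of 11 beside 28.7% of all genes, and without induction Kdm6b alone passed (0.47, adjusted p = 0.0394). Of the 18 complex 1 genes by the same rule, Bmi1 (0.55) and Phc1 (0.56) were higher in 3D induced than in 2D induced cultures. These are 2 of 18 beside 28.7% of all genes. In 3D uninduced against 2D uninduced cultures Pcgf6 (0.67) was higher and Rybp (-0.46) and Pcgf5 (-0.62) were lower. That is 1 higher and 2 lower of 18, beside 21.1% of all genes in either direction. Phc1 was lower in 2D induction (-0.56), 1 of 18 beside 8.88% of all genes.

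Of 9 Cdx and retinoic acid genes, which set Hox domains in the embryo, Rara, Rarg and Cyp26b1 were tested; Cdx2 and Cdx4 had no count. Cyp26b1, which encodes an enzyme that degrades retinoic acid, was at 46.6 and 84.3 CPM in 3D induced, 34.1 and 35.5 CPM in 3D uninduced, 10.3 and 10.2 CPM in 2D induced and 3.44 and 3.09 CPM in 2D uninduced libraries. All spheroid libraries were above all flat ones. The log2 change for 3D against 2D was 2.68 ± 0.27 with induction and 3.40 ± 0.29 without (edgeR, adjusted p = 0.00094 and 0.000633). For 2D induction it was 1.64 ± 0.30 (adjusted p = 0.0151), a call lost without any one of the 4 flat libraries (adjusted p up to 0.148). Rara, a retinoic acid receptor gene, was higher in spheroids by adjusted p alone, by 0.89 ± 0.12 with and 0.82 ± 0.12 without induction (adjusted p = 0.00265 and 0.00434).

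**Figure D5:**
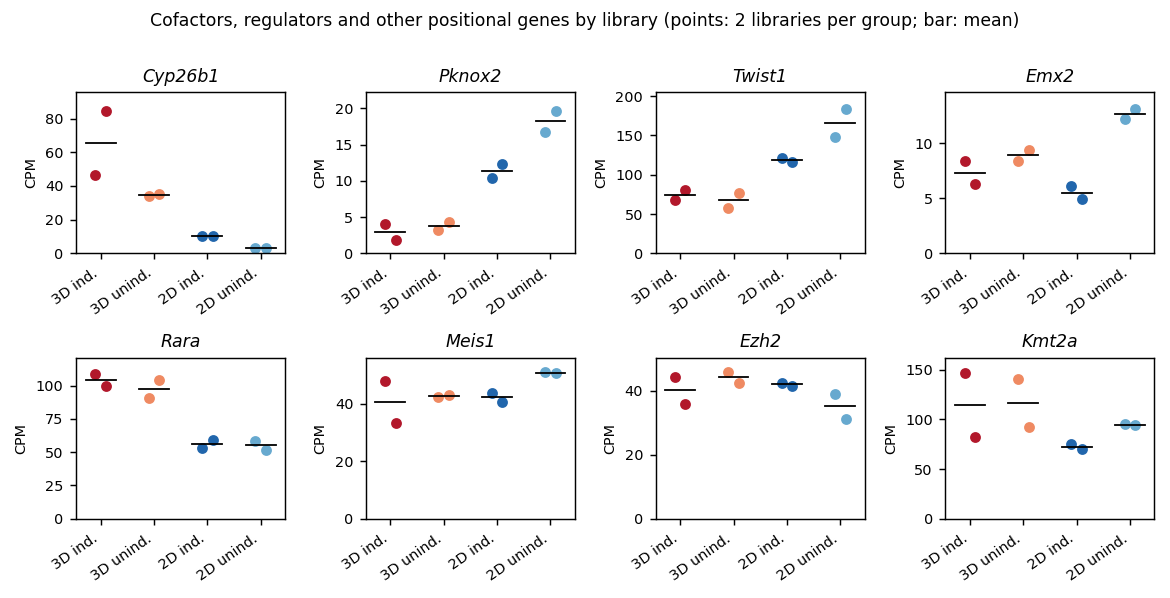
CPM of 8 listed cofactor, regulator and positional genes in each library (points, 2 per group) with the group mean (bar), each panel starting at 0. Cyp26b1 and Rara are higher and Pknox2 and Twist1 are lower in all spheroid libraries than in all flat ones, while the groups lie closer together for Meis1, Ezh2 and Kmt2a.

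Of 27 other transcription factors that mark body position, 14 were tested and 2 were called, each in 1 comparison. These were 1 of 14 in 2D induction, beside 4.52% of all genes, and 1 of 14 in 3D against 2D uninduced, beside 9.44%. Emx2, a homeobox gene of forebrain and urogenital development, was at 6.08 and 4.90 CPM in 2D induced, against 12.2 and 13.1 CPM in 2D uninduced libraries (-1.21 ± 0.22, edgeR, adjusted p = 0.0155; lost without any one of the 4 flat libraries, adjusted p up to 0.146). Twist1, a gene of limb and skull mesenchyme, was at 58.3 and 76.5 CPM in 3D uninduced, against 148 and 183 CPM in 2D uninduced libraries (-1.30 ± 0.17, adjusted p = 0.00276). The hindlimb gene Tbx4 had no count. Next to the clusters, 5 of 8 listed flanking genes were tested. Hibadh, a valine breakdown gene near Hoxa, was called in 2D induction (1.27 ± 0.13, edgeR, adjusted p = 0.00147), 1 of 5 beside 4.52% of all genes. Evx1 and Evx2, at the tail ends of Hoxa and Hoxd, had no count.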

How the data were processed

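The deposited table holds raw counts per Ensembl gene for 8 libraries made with a directional kit, per the labels' protocols. The submitters' processing notes name featureCounts 1.6.3 and HISAT2 2.1.0 with build mm10, and also Trimmomatic 0.38 and FastQC 0.11.7; settings, strand mode and annotation release are not given in the sources. Columns were joined to samples by the names in the sample descriptions; the 2D uninduced columns are numbered 2 and 3 in the table and 1 and 2 in the titles, which were followed. Symbols, exons and positions are from GENCODE vM21, which matched 49326 of 49585 genes.

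Counts were analysed in R 4.3.3 with edgeR 4.0.16 (filterByExpr with a minimum count of 10, TMM, robust quasi-likelihood fit of all 8 libraries, 1 mean per group, 4 residual degrees of freedom). Tests were two-sided. P-values were adjusted after Benjamini-Hochberg across 15255 tested genes, and the thresholds are those of the series description. Each gene has 1 spread shared by the groups in this model, while biological coefficients of variation were 0.327 in 3D induced, 0.111 in 3D uninduced, 0.0473 in 2D induced and 0.0469 in 2D uninduced cultures. On library totals 1 CPM stands for 11.8 to 21.2 counts. DESeq2 1.42.0 and limma 3.58.1 were alternatives. The fit was tested on simulated data. The labels speak of independently prepared samples and not of separate cultures, so p-values reflect only how these samples differ among themselves. Members and lists were chosen with earlier results of these data known. Of the listed genes, 1 Hox gene and 1 cofactor gene are not reported here and were left out of all Hox and cofactor counts, though not of the fit. Every other Hox gene is accounted for, those called or highest in a cluster by library. Other listed genes are named where called, among the smallest adjusted p, or without counts, plus Meis1, Ezh2 and Kmt2a; cluster transcripts and Hoxc9, Hoxc10, Hoxb8, Hoxb4 and Hoxb5 were chosen after their values were seen.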

Additional observations from a re-analysis of the deposited data

How the results depend on the processing

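Of 90 pairs of a tested Hox gene and a comparison, the 19 with an unadjusted p under 0.05 were followed under alternatives. Of their 265 values, 229 kept direction and side of the threshold, 22 lost and 14 gained a call, and 0 reversed. Outside these 19, Hoxd3 in 3D against 2D induced was called lower (-2.67) without 3D induced replicate 1 and higher (1.52) without replicate 2, and was the 1 pair of the 90 called in both directions. The numbers of Hox genes called are given in the order 2D induction, 3D induction, 3D against 2D uninduced, 3D against 2D induced, interaction. They were 1, 0, 2, 2 and 0, and leaving out each library in turn gave 0 to 2, 0 to 2, 0 to 4, 0 to 5 and 0 to 2. For all genes the numbers were 689, 139, 1440, 1892 and 58, and leaving out a library gave 225 to 1169, 24 to 1225, 552 to 2170, 871 to 3025 and 1 to 686; such fits assume that a lone library varies like the others. In 2D induction the Hox number was 2 with no filter, 4 with limma-voom, 2 with the replicate block and 2 from the 4 flat libraries alone, and all genes gave 1348 with limma-voom, 1213 from those 4 libraries and 1354 by adjusted p alone. In 3D induction all genes gave 336 with no filter, 241 with DESeq2, 88 with limma-voom and 0 from the 4 spheroid libraries alone. For 3D against 2D uninduced, adjusted p alone gave 4 Hox genes and 3215 of all genes. For 3D against 2D induced it gave 6 and 4379, the 4 libraries alone gave 0 and 825, and limma-voom gave 1 Hox gene. For the interaction all genes gave 209 with no filter, 163 with DESeq2 and 107 with limma-voom. The cause of these shifts was not tested.

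Hoxa7 in 3D against 2D uninduced was called with DESeq2 (-1.01), its size factors (-1.02), no filter (-1.01) and the 4 libraries alone (-1.01), the last a setting for single genes chosen after seeing the data. Under that setting Hoxd4 in 3D against 2D induced was not called (adjusted p = 0.0679). The labels do not pair replicate numbers, and deviations of same-numbered libraries correlated at -0.006 to 0.027, or 0.206 between the spheroid groups; with the replicate block, which adds Hoxc13 in 2D induction (-1.37, adjusted p = 0.0270), 2, 0, 2, 2 and 0 Hox genes and 639, 114, 1382, 1825 and 39 of all genes were called. Depth limits the 13 members with 1 to 65 counts and, among those tested, Hoxb5, Hoxd3 and Hoxd4 in flat cultures.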
